A study of Mus musculus with 10 samples.

Results

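The genes examined here encode the nuclear subunits of the oxidative phosphorylation system and several of its assembly factors. They were chosen by symbol alone, as every gene whose symbol begins with Ndufa, Ndufb, Ndufc, Ndufs, Ndufv, Sdha to Sdhd, Uqcr, Cox4 to Cox8 or Atp5, which gave 94 of the 24062 genes counted. The libraries came from jejunum, the middle stretch of the small intestine, of 5-day-old pups (postnatal day 5), with 5 libraries in each of 2 groups. The WT group was wild-type C57BL/6. The KSR23 group had the same strain background and carried R23, a cassette encoding interleukin-23 (IL-23), which was switched on by a cre under control of keratin 14, a gene of keratinocytes. Whole tissue was used, and in such bulk RNA fewer cells of a type and less RNA per cell cannot be told apart. The study calls the libraries biological replicates, but no label ties one to an animal, so p-values measure the spread between these libraries, which may be technical.

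Oxidative phosphorylation makes most of the ATP of a resting cell. Complex I passes electrons from NADH and complex II passes electrons from succinate to coenzyme Q, complex III hands them to cytochrome c, and complex IV reduces oxygen to water. Complexes I, III and IV pump protons out of the mitochondrial matrix, and complex V, the ATP synthase, lets them flow back to make ATP. A few catalytic subunits are encoded in mitochondrial DNA and none of those genes was in the count files, so that all values here are for nuclear genes. Several complex IV subunits exist as a common form and a form restricted to muscle, fat, lung or testis. In the intestine, absorptive enterocytes spend much of this ATP on the sodium pump that drives uptake of nutrients.

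To show the control regions of these genes, the 250 bases before the transcription start (RefSeq, GRCm38.p6) are given for 6 of them, each 5′ to 3′ on the strand of its gene. Matches to 4 motifs bound by factors known from mitochondrial genes are in capitals: GCATGCGC for NRF1, CCGGAAG for ETS factors such as GABPA, AAGATGGC for YY1 and AAGGTCA for ERR and other nuclear receptors, on either strand. Cox7a1 (chr7:30183921-30184170, plus strand) is the restricted complex IV gene with the lowest adjusted p. Atp5e (chr2:174464102-174464351, minus strand) and Uqcrh (chr4:116075071-116075320, minus strand) are called genes with an ETS match. Ndufa11 (chr17:56717512-56717761, plus strand) and Atp5l (chr9:44920743-44920992, minus strand) hold NRF1 matches and were not called. Sdhd (chr9:50603850-50604099, minus strand) belongs to complex II.
Cox7a1: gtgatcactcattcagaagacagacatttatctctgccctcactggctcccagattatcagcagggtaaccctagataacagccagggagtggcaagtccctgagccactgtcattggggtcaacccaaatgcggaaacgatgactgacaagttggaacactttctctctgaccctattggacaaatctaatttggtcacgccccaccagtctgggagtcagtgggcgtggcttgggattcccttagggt
Atp5e: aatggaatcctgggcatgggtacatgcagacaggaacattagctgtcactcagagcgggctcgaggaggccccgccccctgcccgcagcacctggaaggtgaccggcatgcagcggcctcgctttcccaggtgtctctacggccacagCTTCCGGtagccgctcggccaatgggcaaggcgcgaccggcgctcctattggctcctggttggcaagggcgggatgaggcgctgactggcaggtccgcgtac
Uqcrh: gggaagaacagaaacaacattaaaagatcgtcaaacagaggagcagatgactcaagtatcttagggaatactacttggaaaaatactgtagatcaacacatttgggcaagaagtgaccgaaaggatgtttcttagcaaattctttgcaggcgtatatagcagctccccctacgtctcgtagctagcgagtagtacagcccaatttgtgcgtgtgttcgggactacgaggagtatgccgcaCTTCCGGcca
Ndufa11: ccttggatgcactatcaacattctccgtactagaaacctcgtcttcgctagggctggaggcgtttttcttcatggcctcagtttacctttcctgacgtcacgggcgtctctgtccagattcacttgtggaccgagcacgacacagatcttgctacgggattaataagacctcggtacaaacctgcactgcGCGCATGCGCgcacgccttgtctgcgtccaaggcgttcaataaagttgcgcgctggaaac
Atp5l: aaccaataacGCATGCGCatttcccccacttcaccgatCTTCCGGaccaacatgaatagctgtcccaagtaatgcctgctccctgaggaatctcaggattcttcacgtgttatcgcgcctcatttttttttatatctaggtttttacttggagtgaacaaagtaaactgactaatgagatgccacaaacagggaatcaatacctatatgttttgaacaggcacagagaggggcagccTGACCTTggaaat
Sdhd: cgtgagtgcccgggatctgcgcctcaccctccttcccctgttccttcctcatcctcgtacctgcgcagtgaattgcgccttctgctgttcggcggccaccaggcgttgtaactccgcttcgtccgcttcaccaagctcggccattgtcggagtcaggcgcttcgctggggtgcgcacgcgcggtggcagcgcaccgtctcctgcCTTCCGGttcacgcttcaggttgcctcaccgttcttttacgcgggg
Cox7a1 had none of these letters in its window, while Uqcrh had its ETS match starting 10 bases before the start and Sdhd 46 bases before it. In Ndufa11 the motif read on the plus strand began 58 bases before the start and overlapped its own reverse complement at 60 bases. Of the 94 genes, 75 had an entry in the promoter table. The NRF1 motif was in 9 of these (12.0%) and in 2.26% of all 32851 promoters, and the ETS motif was in 14 (18.7%) and in 6.91% of all. The ERR motif was found in 5 (6.67%, all promoters 4.08%) and the YY1 motif in 1 (1.33%, all promoters 1.56%). Among the 24 called genes with an entry, 1 held the NRF1 motif and 5 the ETS motif, against 8 and 9 of the 49 that were tested and not called. A match is a description of the letters and not a measured binding site.

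Library totals ran from 25.5 to 32.0 M counts in WT (M stands for 1e6) and from 31.2 to 60.9 M in KSR23. The deepest were KSR23 1 (60.9 M) and KSR23 4 (51.5 M), and the part of depth in the values below was not tested. Here 3 counts corresponded to 0.0427 to 0.119 CPM (counts per 1e6, on totals scaled by trimmed mean of M-values). Of the 94 genes, 91 had 5 or more counts in at least 1 library and were tested. Cox7b2 and Cox8c, isoforms described in testis, had no count in any library, which allows up to 3 counts in each. Ndufs5, a complex I subunit in general use, was listed at 0 in all 10 libraries although only 15.7% of its 75-base stretches were shared with another gene, and its level is left unread, since a gap in the counting and a lack of RNA cannot be told apart. All 10 epithelial markers listed (such as Vil1, Epcam and Krt20) were detected in both groups.

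Certain features of the libraries bear on every value that follows, and their part in the differences was not tested. Reads aligned to more than 1 place made up 23.2 to 26.5% of reads in WT and 20.3 to 23.0% in KSR23. WT 1 and KSR23 3 shared a deficit in the same genes. A gene was counted as such where both libraries lay more than 2-fold below the replicates 1 to 3 that remained in their group, which held for 2099 of 9737 genes above 5 CPM (21.6%) and for 18 of the 86 oxidative phosphorylation genes above 5 CPM. No oxidative phosphorylation gene was more than 2-fold higher in both. Over genes, the deviations of both libraries had a Pearson correlation of 0.90. Atp5d, the delta subunit of the ATP synthase, is an example, chosen after its values were seen. Its level was 25.8, 657, 940, 383 and 197 CPM in WT 1 to 5 and 336, 465, 22.5, 279 and 172 CPM in KSR23 1 to 5. The lowest library of each group was far below its fellows, and the groups overlapped, with WT 2 and WT 3 above every KSR23 library. Other genes of this kind were Atp5b, Cox5a, Cox6a1, Cox8a and Uqcrc1, and none of the 18 was called.

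Libraries 4 and 5 were seldom at the ends of their group. WT 4, WT 5, KSR23 4 and KSR23 5 were its highest or lowest library for 3, 17, 2 and 1 of the 86 oxidative phosphorylation genes above 5 CPM, against 30 to 72 for libraries 1 to 3. Each could be written as a weighted sum of replicates 1 to 3 of its group with a spread over genes of 0.15 (WT 4), 0.17 (WT 5), 0.21 (KSR23 4) and 0.26 (KSR23 5) on the log2 scale. The same fit of replicates 1, 2 or 3 to the 4 other libraries of the group left 0.32 to 0.62. For the oxidative phosphorylation genes the spread was 0.046 to 0.10 for replicates 4 and 5 and 0.14 to 0.26 for replicates 1 to 3. The weights gave WT 4 as 44.1% WT 1 and 54.1% WT 2, and KSR23 5 as 30.7% KSR23 2 and 67.4% KSR23 3. The squared residuals were still 3.72 to 13.7 times what counting alone gives. Where replicates 4 and 5 are not independent of replicates 1 to 3, p-values over 5 against 5 libraries are too small, and results over replicates 1 to 3 are given for the called genes named with their levels.

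The fold change also moved with the length of the transcript across the whole transcriptome, and these genes are short. Their median exon length was 992 bases above 5 CPM, against 2920 bases for the 9623 other genes. Values for this relation follow after the comparison by complex.

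**Figure D1:**
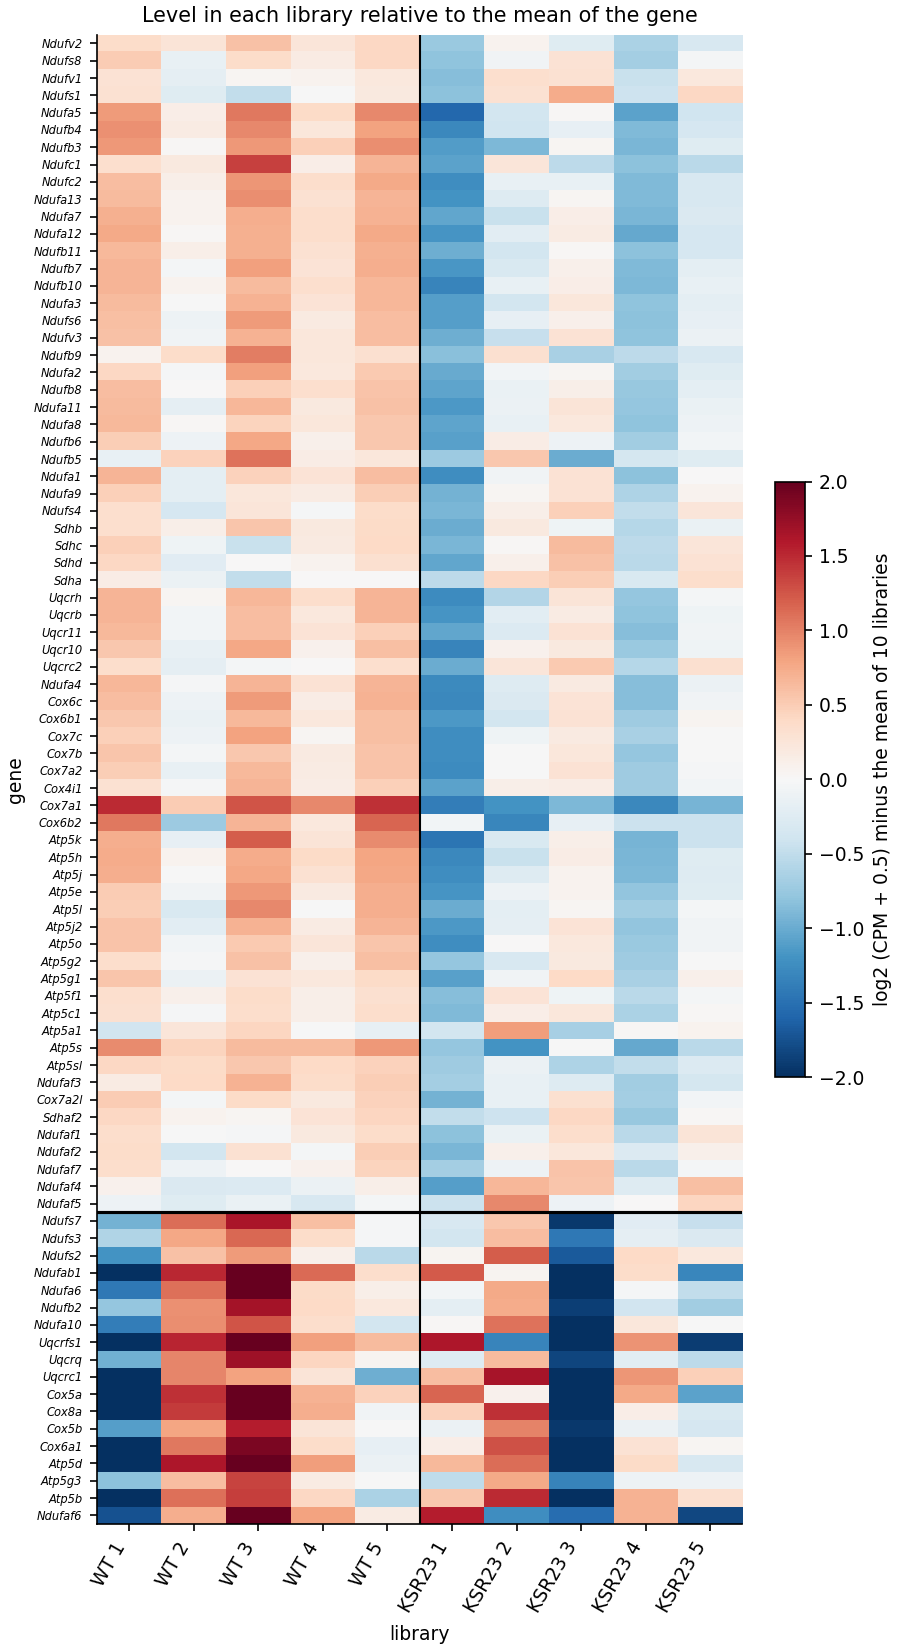
Level of the 86 oxidative phosphorylation genes above 5 CPM (rows) in each of the 10 libraries (columns), as log2 (CPM + 0.5) minus the mean of the gene over all libraries, blue for lower and red for higher. Rows are ordered by complex, and the 18 genes below the black line are those low in both WT 1 and KSR23 3. KSR23 1 and KSR23 4 are blue in most rows above the line.

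To determine if nuclear genes of oxidative phosphorylation differed in jejunum exposed to IL-23, KSR23 was compared with WT across all 17632 genes tested. Of the 91 oxidative phosphorylation genes, 27 were lower in KSR23 (edgeR likelihood ratio test, adjusted p under 0.05), while 8.76% of all genes tested were lower. None was higher, while 9.73% of all genes were, and none was higher at an unadjusted p under 0.05 by this test, the quasi-likelihood F test (which called 8.47% of all genes higher) or DESeq2. The median log2 fold change (KSR23 over WT) was -0.72 and that of all genes 0.03, and 83 of 91 values were negative. The quasi-likelihood F test called 18 lower, against 6.91% of all genes. Upper quartile scaling called 31 lower, with 10.1% of all genes lower and 6.45% higher. Library totals as scaling called 49 lower (all genes 10.5%), and a term for the replicate number left 16 (6.35%). Leaving out KSR23 4 left 10 genes lower (all genes 6.08%) and leaving out KSR23 3 left 41 (10.7%), while 15 passed without WT 3 (7.04%) or WT 5 (6.36%) and 17 without WT 4 (6.11%) or KSR23 1 (8.11%). In replicates 1 to 3 alone the median was -0.69 with 82 values negative, yet the likelihood ratio test called only Cox7a1, against 1.35% of all genes lower. For the 26 other called genes the adjusted p in these libraries ran from 0.271 to 0.681, with all 26 values still negative. The quasi-likelihood F test then called none, against 0.238% of all genes lower. By this test 5 of the 91 genes had an unadjusted p under 0.05, a threshold that about 1 in 20 genes pass where nothing differs.

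The counts for these genes took 3.74, 3.86, 4.6, 3.76 and 3.99% of the library in WT 1 to 5, and 2.14, 3.64, 2.29, 2.45 and 2.52% in KSR23 1 to 5. The groups did not overlap on this share of the library total, with means of 3.99% ± 0.356 and 2.61% ± 0.598 (SD, n = 5). On scaled totals they did overlap, since KSR23 2 (36651 CPM summed) lay above WT 1, WT 2 and WT 4. Gene by gene, 10 of the 91 had every KSR23 library below every WT library, and 6.99% of all genes tested did. These 10 were Atp5s, Atp5sl, Cox7a1, Ndufa5, Ndufa13, Ndufaf3, Ndufb4, Ndufb11, Ndufc2 and Ndufv2. KSR23 1 was the lowest of the 10 libraries for 24 of the 27 called genes and 63 of the 91 tested, and for 12.5% of all genes tested.

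**Figure D2:**
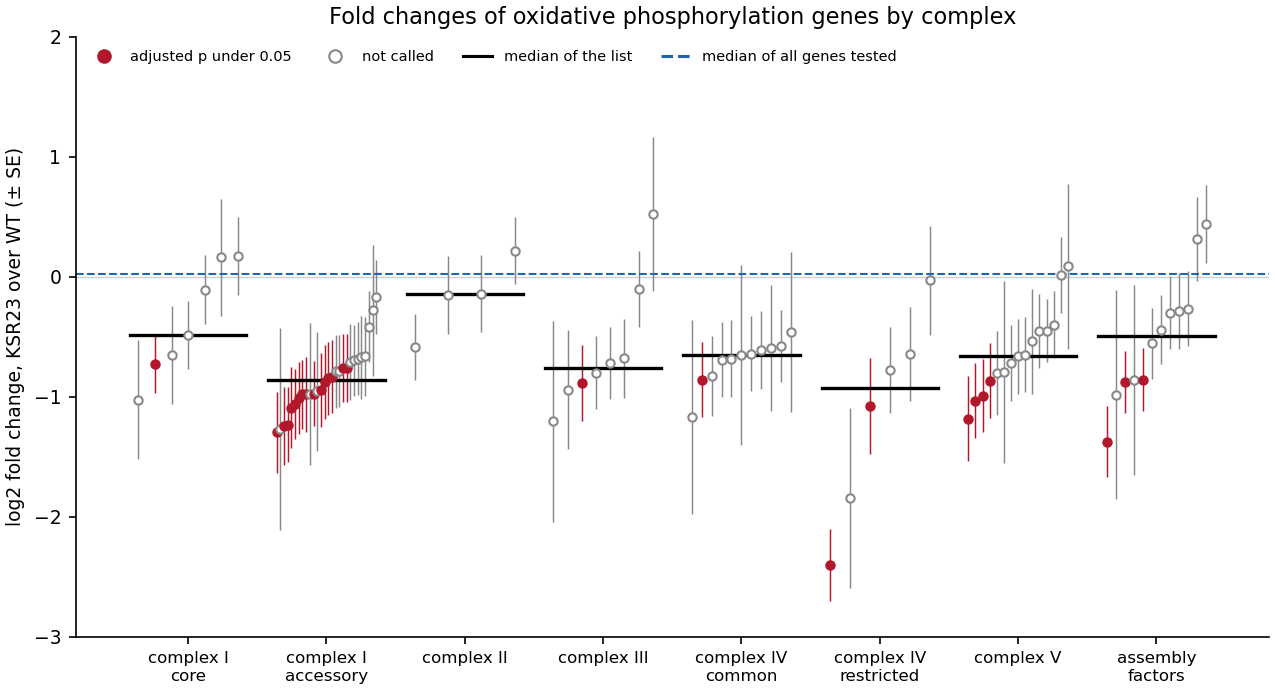
Log2 fold change, KSR23 over WT, of the 91 tested genes by complex, with the standard error of the fit as bars. Filled red points passed an adjusted p of 0.05 and open points did not, black lines are the list medians and the dashed line is the median of all genes tested (0.03). The accessory subunits of complex I hold 15 of the 27 red points and complex II holds none.

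Complex I is the largest complex of the chain. Its core subunits carry the flavin and the iron-sulfur clusters, and its accessory subunits surround them and are needed for assembly and stability. Of 28 accessory genes tested, 15 were lower (53.6%), with a median of -0.86, and all 28 values were negative. Of all genes 8.76% were lower, and of other genes of up to 1000 bases above 5 CPM 26.7%, while the median length of this list was 812 bases. The quasi-likelihood F test called 10 of the 28, against 6.91% of all genes. With the trend along length removed, a setting described below, 3 of the 28 were lower (all genes 8.05%). In replicates 1 to 3 alone none of the 28 was called (all genes 1.35% lower). Of 7 core genes, only Ndufv2, which holds an iron-sulfur cluster of the NADH-binding arm, was lower (14.3%, all genes 8.76%), and the median was -0.48. No test of the difference between both lists was made.

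Ndufa5, an accessory subunit of the arm that receives electrons, was at 418, 256, 485, 305 and 456 CPM in WT 1 to 5. It was at 77.8, 180, 236, 111 and 176 CPM in KSR23 1 to 5. All KSR23 libraries were below the lowest WT library, although KSR23 3 and WT 2 lay close together. This gave a log2 fold change of -1.30 with an SE of 0.34 (adjusted p = 0.00185). Replicates 1 to 3 alone gave -1.19 (adjusted p = 0.329).

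Ndufb4, an accessory subunit of the membrane arm, was at 45.1, 26.7, 46.5, 27.9 and 41.8 CPM in WT and at 9.42, 17.8, 21.1, 12.6 and 18.6 CPM in KSR23. Again no library of the groups crossed, and the log2 fold change was -1.24 (SE 0.32, adjusted p = 0.00206; replicates 1 to 3 alone 0.2999). For this gene 35.2% of the 75-base stretches were shared with pseudogenes, and reads with more than 1 alignment entered no gene. Ndufb3, also of the membrane arm, was at 269, 150, 271, 205 and 282 CPM in WT and at 68.3, 78.7, 152, 77.9 and 125 CPM in KSR23 (log2 fold change -1.23, SE 0.31, adjusted p = 0.00131; replicates 1 to 3 alone 0.307). Here KSR23 3 reached the level of WT 2. The 3 genes behaved alike across libraries, with WT 2 and WT 4 low in their group and KSR23 1 and KSR23 4 low or nearly so in theirs.

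The 12 other called accessory genes were Ndufa2, Ndufa3, Ndufa7, Ndufa12, Ndufa13, Ndufb7, Ndufb8, Ndufb10, Ndufb11, Ndufc1, Ndufc2 and Ndufs6. Their log2 fold changes ran from -1.09 (Ndufc1) to -0.76 (Ndufb8), and only Ndufa13, Ndufb11 and Ndufc2 had groups that did not overlap. Ndufa2, Ndufa3, Ndufb8, Ndufb10 and Ndufs6 were lost by the quasi-likelihood F test, with adjusted p of 0.0506 to 0.0580. Each of these passed in only 2 of the 10 fits that left out 1 library. Ndufa12 shares 22.0% of its stretches with a pseudogene. Ndufa13, also known as Grim19, shares 25.6% of its stretches with Tssk6, on the strand opposite to it. Ndufb8 had the highest level per length of the accessory genes (1081 CPM per kilobase in WT) and Ndufs7 that of the core genes (384). Ndufv2 was at 490, 457, 572, 452 and 509 CPM in WT and at 228, 400, 321, 245 and 307 CPM in KSR23. The WT libraries kept within a narrow band above all KSR23 libraries, and the log2 fold change was -0.73 (SE 0.24, adjusted p = 0.0225; replicates 1 to 3 alone 0.6335). Ndufv2 passed in 4 of the 10 fits that left out 1 library, and was lost with the length trend removed (adjusted p = 0.0735).

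Complex II, succinate dehydrogenase, is also an enzyme of the citric acid cycle and has no subunit in mitochondrial DNA. None of its 4 genes was called, with 1 at an unadjusted p under 0.05 by each of both edgeR tests and DESeq2, and their median was -0.15. Sdha, the flavoprotein that oxidises succinate, was at 883, 741, 572, 802 and 809 CPM in WT and at 557, 1071, 1122, 651 and 1027 CPM in KSR23. The KSR23 libraries stood both above and below the WT range, and the log2 fold change was 0.22 (SE 0.28, adjusted p = 0.650). Sdhb, the iron-sulfur subunit, was at -0.58 on that scale (SE 0.27, adjusted p = 0.124). The membrane anchors Sdhc and Sdhd were at -0.15 (SE 0.33) and -0.14 (SE 0.32). Sdhd had the highest level per length of the complex (1100 CPM per kilobase in WT).

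Of the 8 complex III genes, Uqcrh, the hinge protein that holds cytochrome c1 for its partner, was lower, and the median was -0.76. This 1 call is 12.5% of the list, near the 8.76% of all genes and below the 26.7% of other genes of up to 1000 bases. Its values were 762, 492, 754, 607 and 763 CPM in WT and 199, 316, 570, 279 and 463 CPM in KSR23, so that KSR23 3 stood above WT 2. The log2 fold change was -0.89 (SE 0.31, adjusted p = 0.0320), and the adjusted p was 0.0545 by the quasi-likelihood F test and 0.546 in replicates 1 to 3 alone. Uqcr10, a small subunit, had the highest level per length (1556 CPM per kilobase in WT) and a log2 fold change of -0.68 that did not pass (adjusted p = 0.145).

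Complex IV subunits in common use gave 1 call in 11 genes (9.09%), about the 8.76% of all genes, with a median of -0.66 and all 11 values negative. The call was Ndufa4, a subunit first assigned to complex I, at 1079, 673, 1093, 833 and 1097 CPM in WT and 282, 572, 776, 376 and 631 CPM in KSR23. KSR23 3 was again above WT 2, the log2 fold change was -0.86 (SE 0.31, adjusted p = 0.0389) and the adjusted p was 0.0623 by the quasi-likelihood F test and 0.608 in replicates 1 to 3 alone. Cox4i1, the main form of subunit IV, had the highest level per length of all these genes in WT (2025 CPM per kilobase) and a log2 fold change of -0.58 (adjusted p = 0.179). The remaining common partners of the isoform pairs were not called either. Their log2 fold changes were -0.69 (Cox6b1, adjusted p = 0.114), -0.66 (Cox8a, 0.610), -0.64 (Cox7b, 0.146), -0.61 (Cox7a2, 0.188) and -0.46 (Cox6a1, 0.701).

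The restricted isoforms of complex IV held the lowest value of all. Cox7a1, the form of subunit VIIa found in heart, skeletal muscle and brown fat, was at 39.5, 19.7, 33.7, 27.2 and 38.9 CPM in WT 1 to 5. It was at 4.98, 5.74, 7.16, 5.35 and 6.97 CPM in KSR23 1 to 5. The highest KSR23 library lay far below the lowest WT library, and each library held at least 178 counts. The means were 31.8 ± 8.38 and 6.04 ± 0.976 CPM (SD, n = 5), and the fitted level was 5.27-fold higher in WT (log2 fold change -2.40, SE 0.30, adjusted p = 2.44e-12). Without replicates 4 and 5 it stood at -2.34, with an adjusted p of 0.00354 by the likelihood ratio test and of 0.0657 by the quasi-likelihood F test. Cox7a1 was called in 26 of the 28 other settings tried, the most of the 27 called genes.

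Cox6b2, the form of subunit VIb described in testis, was lower at 27.8, 7.67, 21.1, 15.3 and 29.9 CPM in WT and 12.5, 4.997, 11.6, 9.60 and 9.57 CPM in KSR23. WT 2 fell among the KSR23 libraries, and the log2 fold change of -1.08 (SE 0.40) had an adjusted p of 0.0441, or 0.0685 by the quasi-likelihood F test and 0.617 in replicates 1 to 3 alone. Cox4i2 (-0.78, adjusted p = 0.117), Ndufa4l2 (-0.64, 0.268), Cox6a2 (-0.03, 0.974) and Cox8b (-1.84, 0.0629) were not called. Cox8b and Cox6a2 stayed under 1 CPM in every library.

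To compare isoforms without scaling between libraries, the log2 ratio of the restricted to the common gene was taken within each library for 9 pairs. Cox7a1 made up 5.00, 3.92, 3.88, 4.36 and 4.65% of the summed counts of Cox7a1 and Cox7a2 in WT 1 to 5, and 2.18, 1.06, 1.08, 1.62 and 1.31% in KSR23 1 to 5. The ratio did not overlap between the groups and was lower by a log2 difference of -1.68 in KSR23. The two-sided exact permutation test gave p = 0.00794, the smallest that 5 against 5 libraries allow, and 0.0714 after adjustment over the 9 pairs. No pair passed, and 1 separated pair alone could not pass in this design. Among the 8 other pairs the exact p was 0.310 or more. The ATP synthase c-subunit genes, which encode the same mature protein, were compared in the same way. Atp5g1 to Atp5g3 differed by -0.01 on the log2 scale, with an SD of 0.97 in WT and 1.05 in KSR23 that came with the low Atp5g3 of WT 1 and KSR23 3.

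**Figure D3:**
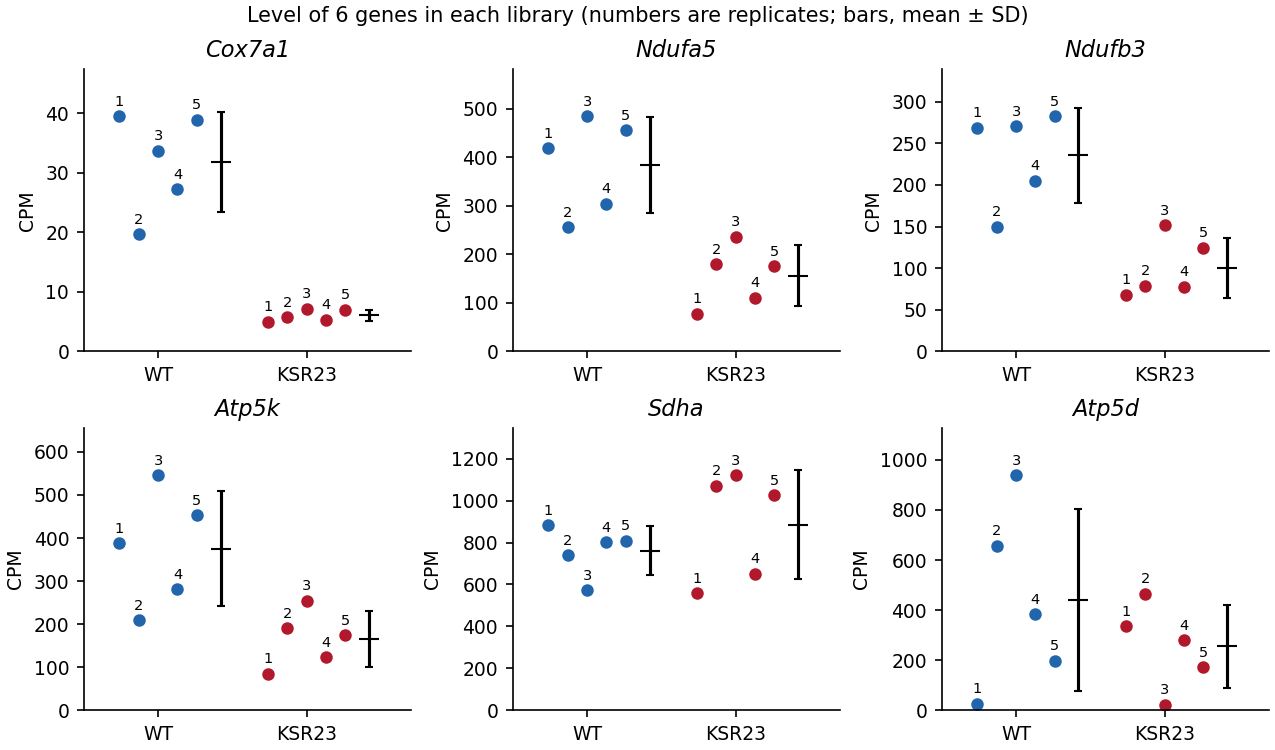
Level (CPM, linear axis from 0) of 6 genes in each library, with the replicate number above each point and the mean ± SD of 5 libraries beside each group. Cox7a1 and Ndufa5 do not overlap between the groups, Ndufb3 and Atp5k overlap in part, Sdha overlaps fully, and Atp5d shows the shared low values of WT 1 and KSR23 3.

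Complex V consists of a catalytic head, a stalk and a membrane sector with the rotating c-ring. Of 15 genes 4 were lower (26.7%), with a median of -0.66, against 8.76% of all genes and the same 26.7% of other genes of up to 1000 bases above 5 CPM. Atp5k, the membrane-sector subunit e that joins 2 synthases into dimers, was at 388, 210, 546, 282 and 453 CPM in WT and 84.6, 191, 255, 124 and 175 CPM in KSR23. WT 2 lay below KSR23 3, and the log2 fold change was -1.18 (SE 0.35, adjusted p = 0.00925), with an adjusted p of 0.443 in replicates 1 to 3 alone. Atp5h and Atp5j, parts of the outer stalk, were at -1.03 (SE 0.31) and -0.99 (SE 0.31), with adjusted p = 0.00885 and 0.0114. For Atp5h 27.1% of the 75-base stretches were shared with a pseudogene. Atp5e, the epsilon subunit of the inner stalk, was at -0.87 (SE 0.31, adjusted p = 0.0349), and was lost by the quasi-likelihood F test (0.0532) and in all but 2 of the 10 fits that left out 1 library. The catalytic genes Atp5a1 and Atp5b, chosen after their values were seen, were not called, at 0.02 (SE 0.31) and 0.09 (SE 0.68), and both signs turned under upper quartile scaling and in replicates 1 to 3 alone, that of Atp5a1 also with library totals. Atp5g3 had the highest level per length (1507 CPM per kilobase in WT), while Atp5g1, Atp5g2 and Atp5g3 were at -0.45, -0.65 and -0.54 with adjusted p of 0.338, 0.139 and 0.440.

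Among the 12 assembly factors and related genes under the same symbols, 3 were lower (25%, all genes 8.76%) and the median was -0.50. Atp5s, a coupling factor associated with the synthase, was at 87.7, 62.2, 70.6, 70.9 and 83.2 CPM in WT and 26.3, 19.6, 45.3, 22.2 and 31.1 CPM in KSR23. All WT libraries were above all KSR23 libraries, and the log2 fold change was -1.38 (SE 0.30, adjusted p = 0.000117), with an adjusted p of 0.271 in replicates 1 to 3 alone. Atp5sl, listed by RefSeq as Dmac2 and known in complex I assembly, was at 34.6, 33.9, 37.7, 34.4 and 35.7 CPM in WT and 15.6, 23.9, 16.7, 18.2 and 21.4 CPM in KSR23. Its WT libraries were nearly equal, and the log2 fold change was -0.88 (SE 0.26, adjusted p = 0.00728), with 0.490 in replicates 1 to 3 alone. Ndufaf3, a factor for an early complex I intermediate, was at 36.2, 42.9, 52.8, 41.96 and 45.4 CPM in WT and 20.0, 29.2, 27.0, 19.9 and 25.1 CPM in KSR23 (log2 fold change -0.86, SE 0.26, adjusted p = 0.0111), with 0.594 in replicates 1 to 3 alone. Cox7a2l, which joins complexes III and IV into supercomplexes, had the highest level per length of this list (111 CPM per kilobase in WT). It was not called (-0.55, adjusted p = 0.191), and its ratio to Cox7a2 differed by 0.08 on the log2 scale (exact permutation p = 0.508).

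The length of the transcript was then set beside these values. Among other genes above 5 CPM, the median log2 fold change was -0.57 up to 750 bases, -0.53 from there to 1000 bases, -0.35 to 1500 bases, -0.02 to 2500 bases, 0.27 to 4000 bases and 0.39 beyond. The oxidative phosphorylation genes had medians of -0.79, -0.97, -0.66, -0.27, 0.18 and -0.96 in the same ranges, with 5 and 3 genes in the last 2. The 3 genes beyond 4000 bases rest on listed lengths of 4375 to 4912 bases, and some of them were also low in both WT 1 and KSR23 3. Across genes, the Spearman correlation of length and log2 fold change was 0.40 for the 86 oxidative phosphorylation genes and 0.38 for the 9623 others. Genes share the same libraries, so these are descriptions. Up to 1000 bases, 19 of 43 oxidative phosphorylation genes were lower (44.2%), against 26.7% of the 562 other genes of that length above 5 CPM, with medians of -0.80 and -0.55. Above 1000 bases 8 of 43 were lower, with a median of -0.48, against 6.67% of the 9061 other genes of that length above 5 CPM.

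When the trend along length was taken out of each library before the fit, a setting added after the data were seen, 6 of the 91 genes were lower and 1 higher. Of all genes 8.05% were then called lower and 6.85% higher, and the medians were -0.21 for these genes and -0.06 for all. Atp5s, Atp5sl, Cox7a1, Ndufa5 and Ndufb4 remained among the 6, and Cox7a1 was then at -1.65 (adjusted p = 1.25e-07). The sixth, Ndufb2, chosen like Ndufaf5 after its values were seen, rests on a listed length of 4375 bases. The gene called higher was Ndufaf5, an assembly factor (0.80, adjusted p = 0.0495). A covariate meant for the genes low in WT 1 and KSR23 3 was also added after the data were seen. It was the main axis of the spread within groups, taken from the other genes above 5 CPM in these same libraries. Such a term takes up spread that the test weighs differences against, so more calls are expected over all genes. With it 63 of the 91 were lower, against 17.7% of all genes lower and 19.2% higher.

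**Figure D4:**
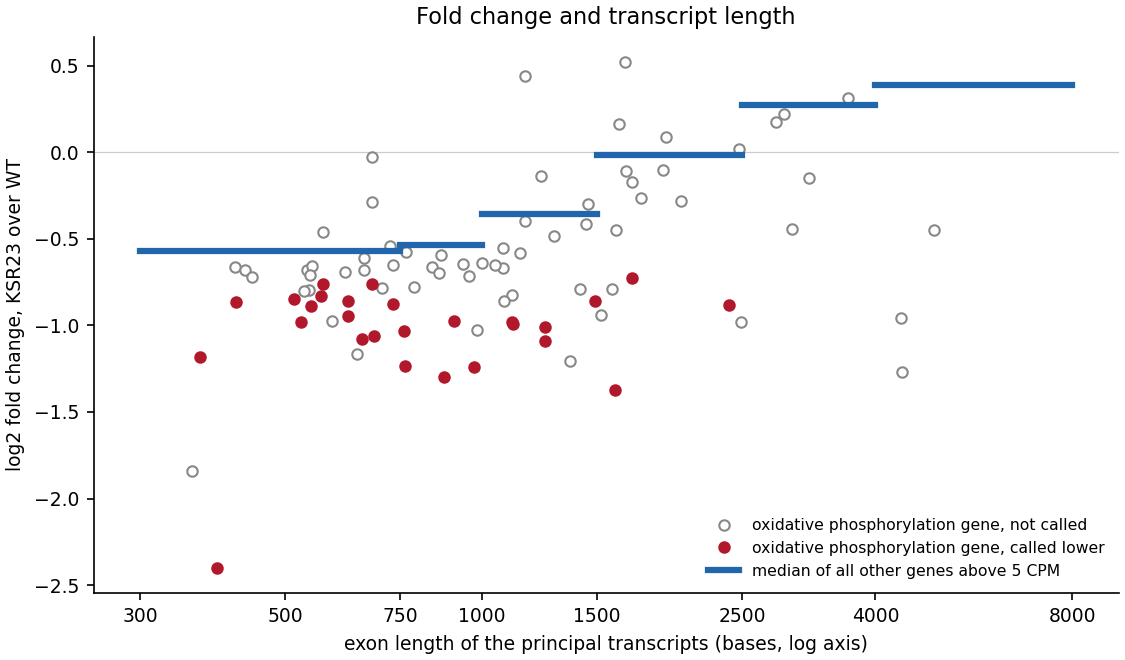
Log2 fold change, KSR23 over WT, against exon length in bases (log axis) for the 91 tested genes, red where called lower and open where not. Blue bars give the median of all other genes above 5 CPM in 6 length ranges, of which the first and the last end at the edges of the plot. Most points below 1500 bases lie at or under the blue bars, and Cox7a1, at 393 bases, lies lowest.

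Genes that work with the chain but lie outside the symbol rule were read in the same fit. Of 32 electron carriers and other assembly factors, 4 were lower and none higher (all genes 8.76% and 9.73%), with a median of -0.49. None was higher at an unadjusted p under 0.05 by either edgeR test or DESeq2. The lowest was Cox17, the copper chaperone of complex IV, at 316, 222, 381, 240 and 340 CPM in WT and 67.1, 102, 143, 76.3 and 111 CPM in KSR23. The groups were well apart (log2 fold change -1.58, SE 0.29, adjusted p = 3.02e-06), and the adjusted p was 7.55e-07 with the length trend removed, but 0.0852 in replicates 1 to 3 alone. The first of these rests on a listed length of 3740 bases. Etfb, which passes electrons from fatty acid oxidation to the chain, was at -1.11 (adjusted p = 0.00216). Atpif1, the inhibitor of the ATP synthase, was at -0.96 (adjusted p = 0.00980), and Tmem126b, a complex I assembly factor, was at -0.88 (adjusted p = 0.0263). Mitochondrial ribosomal proteins, which build the subunits encoded in mitochondrial DNA, had a median of -0.32, with 7 of 77 lower, close to the 8.76% of all genes. In replicates 1 to 3 alone Etfb, Atpif1 and Tmem126b had adjusted p of 0.4198, 0.495 and 0.626, and with the length trend removed Etfb and Atpif1 had 0.09035 and 0.311.

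The 16 genes of the citric acid cycle list had a median of 0.16 and 1 call. This was a smaller share than the 9.73% of all genes called higher. The list included Pdha1, Pdhb and Dlat of pyruvate dehydrogenase, which feeds the cycle and is not part of it. Cs, citrate synthase, was at 401, 292, 270, 342 and 370 CPM in WT and 484, 846, 825, 570 and 813 CPM in KSR23. Every KSR23 library was above every WT library, and the log2 fold change was 1.08 (SE 0.26, adjusted p = 0.000667; replicates 1 to 3 alone 0.198). The glycolysis list also held Pdk1, Pdk2, Pdk3 and Pdk4, kinases of pyruvate dehydrogenase, which are not enzymes of glycolysis. Of its 19 genes 7 were higher, against 9.73% of all genes, with a median of 0.79. The quasi-likelihood F test called 6 of the list, against 8.47%. Hk2, the hexokinase that traps glucose, was at 4.71, 5.83, 5.58, 4.95 and 6.57 CPM in WT and 23.5, 42.2, 25.2, 33.7 and 37.2 CPM in KSR23 (log2 fold change 2.55, SE 0.29, adjusted p = 9.11e-15). It also passed in replicates 1 to 3 alone (adjusted p = 0.000899). Pkm, pyruvate kinase, was at 1.61, Pfkp and Pfkl, the platelet and liver phosphofructokinases, were at 1.41 and 1.03, and Ldha, lactate dehydrogenase A, was at 1.08, with adjusted p of 0.0000508, 0.0000896, 0.00379 and 0.00461. In replicates 1 to 3 alone these 4 did not pass, with adjusted p of 0.1185 (Pkm), 0.1005 (Pfkp), 0.3402 (Pfkl) and 0.262 (Ldha), so that Hk2 was the 1 glycolysis gene called, against 2.01% of all genes higher. With the length trend removed 8 were called, against 6.85%. The median length of the list was 2246 bases.

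Of 14 regulators of mitochondrial genes, 3 were higher and 1 lower (7.14%), against 9.73% and 8.76% of all genes. Ppargc1a, the coactivator PGC-1α that drives mitochondrial biogenesis, was at 27.4, 16.9, 15.3, 24.1 and 28.2 CPM in WT and 4.51, 10.03, 9.18, 9.19 and 10.1 CPM in KSR23. No library crossed, and the log2 fold change was -1.38 (SE 0.33, adjusted p = 0.000617), with an adjusted p of 0.287 in replicates 1 to 3 alone. With the length trend removed its adjusted p was 1.12e-05. Pprc1, a related coactivator, was higher (1.67, adjusted p = 0.00219), as were Hif1a, the oxygen-regulated factor (1.64, adjusted p = 0.00895), and Myc, a growth regulator (2.0, adjusted p = 0.0168, quasi-likelihood F test 0.0581). Hif1a was at 139 and 98.3 CPM in KSR23 1 and 4 and at 27.3 to 34.4 CPM in the other KSR23 libraries, and WT ran from 11.6 to 29.2 CPM. In replicates 1 to 3 alone Pprc1, Hif1a and Myc had adjusted p of 0.314, 0.321 and 0.431, and Hif1a was also lost with the length trend removed (0.0543). Myc and Pprc1 were among the genes low in both WT 1 and KSR23 3.

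The remaining regulators were not called. Nrf1, Gabpa and Gabpb1, factors for promoters of this kind, were at 0.65 (adjusted p = 0.195), 0.60 (0.129) and 0.25 (0.789). Esrra was at 0.26 (0.739), Yy1 at -0.10 (0.851) and Ppargc1b at 0.35 (0.555). The factors that act on mitochondrial DNA, Tfam, Tfb1m, Tfb2m and Polrmt, were at 0.49 (0.548), -0.71 (0.134), 0.31 (0.649) and 0.56 (0.602). The list of inner membrane carriers and uncoupling proteins also held Vdac1, Vdac2 and Vdac3, channels of the outer membrane. Of its 13 genes tested, only Ucp3 was called (7.69%, near the 8.76% of all genes lower). It had 10, 2, 2, 3 and 3 counts in WT 1 to 5 and none in KSR23 (adjusted p = 0.000139; replicates 1 to 3 alone 0.0385, or 0.340 by the quasi-likelihood F test), so that it stood at the limit of 3 counts in 4 of 5 WT libraries.

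Summed levels of cell type markers did not overlap between the groups for adipocytes, neurons and glia, and pancreatic acinar cells, and overlapped for the other lists. Their part in the values above was not tested, and marker counts stand against 8.76% of all genes lower and 9.73% higher. The adipocyte list summed to 674 to 740 CPM in WT and 285 to 500 CPM in KSR23, with 3 of 5 tested markers lower (Fabp4, Cidec and Cidea). Its defining genes Adipoq, Lep, Ucp1 and Retn were at 0 in every library. Striated muscle markers, where Cox7a1 is abundant in the body, summed to 27.0 to 29.4 CPM in WT and 15.7 to 30.2 CPM in KSR23, and Actc1 and Myl1 were lower among 9 tested. Smooth muscle markers summed to 2103 to 4340 CPM in WT and 2042 to 2786 CPM in KSR23, with Acta2 lower among 10. Epithelial markers summed to 2875 to 5734 CPM in WT and 5593 to 9421 CPM in KSR23, with Cdh1 and Krt20 higher among 10. All 8 pancreatic acinar markers tested were lower, and the list summed to 75.8 to 124 CPM in WT and 0.677 to 1.16 CPM in KSR23. Leukocyte markers summed to 778 to 914 CPM in WT and 592 to 799 CPM in KSR23, with 2 lower and 1 higher among 10. Endothelial and pericyte markers summed to 164 to 217 and 182 to 245 CPM, with 1 of 10 lower. Markers of neurons and glia summed to 121 to 139 CPM in WT and 53.2 to 77.6 CPM in KSR23, with 1 lower and 1 higher among 10, and none of the 4 red cell markers tested was called.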

How the data were processed

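Total RNA (100 pg, per the labels) was primed with oligo-dT, amplified by 15 cycles of PCR and read from one end over 75 bases. The authors mapped the reads to mm10 with TopHat2 2.1.0 and counted them with HTSeq 0.6.1p1 under strict intersection, and deposited whole-number counts for 24062 genes in each library. Whether counting used strand is not given in the sources used here. No molecular identifiers were used, so limits cover counting error only. Groups came from the sample titles. Counts were fitted in edgeR 4.0.16 (R 4.3.3), with TMM factors, 5 or more counts in at least 1 library and the group as the only term, by the likelihood ratio test. The study's methods name edgeR and a removal of genes under 5 counts in any sample, which can also be read as 5 counts in every library, and no scaling, so that the filter's reading and TMM were chosen here. P-values were adjusted by Benjamini-Hochberg over 17632 genes. The test was checked on simulated counts. Quasi-likelihood, DESeq2 1.42.0, other scalings and filters, a replicate block and leaving out libraries were the alternatives. Lengths and shared stretches came from GENCODE M21 (93 genes matched by symbol, 1 by a RefSeq synonym). The length trend was a lowess curve (span 0.3) of log2 CPM along length in each library, used as an offset. Genes named were all called ones, both genes of each isoform pair, the highest per length of each list, complex II, the regulators and up to 5 called genes of each other list. Atp5a1, Atp5b, Atp5d, Ndufaf5, Ndufb2 and the called cell type markers were chosen after their values were seen. The genes and lists were chosen with earlier results of these data known.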

Additional observations from a re-analysis of the deposited data

Results flagged for a closer look

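Among 155 groups of 5 libraries tested, 4 held a value set apart from the rest by more than 0.71 of the group's range (Dixon's ratio), and chance alone flags about 1 in 20 groups. Ppargc1a was at 4.51 CPM in KSR23 1 and at 9.18 to 10.1 CPM in the other 4 KSR23 libraries. Ucp3 was at 0.310 CPM in WT 1, or 10 counts, and at 0.0707 to 0.113 CPM in the other WT libraries. Tfb1m was at 6.996 CPM in KSR23 3 and at 2.94 to 4.07 CPM in the rest of its group. The summed level of the oxidative phosphorylation genes was 51720 CPM in WT 3, against 34699 to 39100 CPM in WT 1, 2, 4 and 5.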

How the results depend on the processing

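Of the 756 values that the 27 called genes took under the alternatives, 474 stayed past the threshold, 282 did not, and none changed sign. Genes called lower (27) numbered 49 with library totals as scaling (all genes 10.5%), 16 with a replicate block (6.35%), 5 with that block and the quasi-likelihood F test (3.22%), 1 in replicates 1 to 3 alone (1.35%) and 0 there by the quasi-likelihood F test (0.238%). Leaving out a library gave 10 (without KSR23 4) to 41 (without KSR23 3), against 6.08% and 10.7% of all genes, with 15 without WT 3 (7.04%) or WT 5 (6.36%) and 17 without WT 4 (6.11%) or KSR23 1 (8.11%). Added settings gave 63 with the covariate for the shared low genes (17.7%), 6 with the length trend removed by either test (8.05% and 5.8%), 28 with both terms (19.2%), 6 in replicates 1 to 3 with the covariate (5.45%) and 0 there with the length trend removed (1.17%). Genes called higher (0) were 1 with the length trend removed (6.85%) and 2 with the covariate as well (15.7%). All genes called (3261) were 1184 with the block and quasi-likelihood, 579 in replicates 1 to 3 and 140 there by quasi-likelihood, 6501 with the covariate, 1962 with the length trend removed by quasi-likelihood, 6160 with both added terms, and 2108 and 477 in replicates 1 to 3 with the covariate and the length term. The cause of these moves was not tested. Same-numbered libraries did not pair (correlations of deviations from -0.747 to 0.522, 1 of 5 best with its own number). The isoform ratios could not be judged by the count that passed (0 in all settings), since 1 separated pair among 9 cannot reach the threshold with these libraries.

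Signs turned only in genes that were not called. With the length trend removed (likelihood ratio, quasi-likelihood, with the covariate, replicates 1 to 3), Cox6a2 was at 0.54, 0.54, 0.53 and 0.21, Cox6a1 at 0.26, 0.26, 0.42 and 0.0285, Cox8a at 0.08, 0.08, 0.26 and 0.005, Sdhd at 0.20, 0.20, 0.15 and 0.28, and Atp5g3, for the first 3, at 0.0762, 0.0762 and 0.12. Atp5a1 (0.02) was at -0.0346 with library totals, -0.1494 with upper quartile factors, -0.0096 with 5 counts in every library, -0.0396 with the replicate block by both tests, -0.0165 in replicates 1 to 3 by both tests and -0.0096 there with the covariate, and, with the length trend removed, at -0.0883, -0.0883, -0.0863 and -0.1404. Atp5b (0.09) was at -0.0219 with upper quartile factors, -0.1195 in replicates 1 to 3 by both tests and -0.03 there with the length trend removed. Sdha was at -0.0229 with both added terms, and Sdhc at 0.0469 in replicates 1 to 3 by both tests. Leaving out single libraries gave ranges of -0.2062 to 0.1574 (Atp5a1), -0.2398 to 0.4476 (Atp5b), -0.1901 to 0.24 (Cox6a2), -0.8436 to 0.0842 (Cox6a1), -0.3674 to 0.0563 (Sdhc), -0.3364 to 0.0815 (Sdhd), -0.0366 to 0.4371 (Esrra) and -0.1959 to 0.0051 (Yy1). Upper quartile scaling moved the median of all genes to -0.14 and that of the oxidative phosphorylation genes to -0.89. Depth limits mainly Cox8b, Cox6a2 and Ucp3, which had few counts.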
